A study of Arabidopsis thaliana with 9 samples.

Results

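Dividing nuclei were followed here across 9 single-nucleus RNA libraries of the Arabidopsis hypocotyl, the organ between shoot and root whose cambium drives radial growth. A passing nucleus was called dividing when it held at least 3 counts from at least 2 of 11 cell-cycle genes. These were the B-type cyclins CYCB1;1 (AT4G37490), CYCB1;2 (AT5G06150) and CYCB1;3 (AT3G11520) and the A-type cyclin CYCA1;1 (AT1G44110). The plant mitotic kinases CDKB1;1 (AT3G54180), CDKB1;2 (AT2G38620), CDKB2;1 (AT1G76540) and CDKB2;2 (AT1G20930), the DNA topoisomerase TOPII (AT3G23890), the phragmoplast kinesin HINKEL (AT1G18370) and the cytokinesis syntaxin KNOLLE (AT1G08560) completed the rule. Of 5175 passing nuclei, 71 met the rule, a share of 1.37% (95% exact interval 1.07 to 1.73%). The counts of the 11 genes chose these nuclei and are given below only as a description.

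Nuclei of 7 libraries came from 4-week-old Col-0 plants that carried the reporters PXY:H4-GFP and SMXL5:H2B-RFP, whose promoters are active on the xylem side and the phloem side of the cambium. One of these, 10x all hypocotyl, was a droplet library read at the 3′ ends of transcripts. The other 6 were plates of VASA-seq, a method that captures total RNA and counts unique fragments, with 3 plates of nuclei sorted for GFP and/or RFP (VASA cambium) and 3 taken without that gate (VASA all hypocotyl). The last pair of libraries, 10x WT and 10x d14, came from 19-day-old Col-0 plants and from d14-1 plants, which are mutant in the strigolactone receptor D14, and all plants grew under 10 h of light and 14 h of dark. Each genotype and each VASA gate was 1 preparation of nuclei as far as the labels say, so p-values below measure the spread between plates or libraries, which may be technical.

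Plant cells pass from DNA synthesis, when histones and replication enzymes are made, through G2 to mitosis. A and B cyclins bind CDKA and CDKB kinases to drive entry, and the anaphase-promoting complex, switched on by CDC20 and CCS52, then destroys the cyclins. Division ends when the phragmoplast, an array of microtubules, guides vesicles that fuse into the new cell wall. Many genes of late G2 and mitosis are controlled by MYB3R factors that bind a promoter element with the core AACGG. In the hypocotyl, divisions are known mainly from the vascular cambium and the cork cambium.

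To show this core in the genes that the results turn on, the 250 bases before the annotated start of 6 genes are printed from NCBI RefSeq TAIR10.1, 5′ to 3′ on the strand of the gene, with AACGG and its reverse complement CCGTT in capitals. CYCB1;2 (chr5:1861704-1861953, minus strand) and KNOLLE (chr1:2711001-2711250, minus strand) are rule genes. The microtubule bundling protein gene MAP65-4 (chr3:22480981-22481230, minus strand), the kinesin genes ATK5 (chr4:2674814-2675063, plus strand) and RSW7 (chr2:12270764-12271013, minus strand) and the chromosome-binding protein gene 3xHMG-box2 (chr4:12389917-12390166, plus strand) lay outside the rule and were among the genes that rose. Another gene, AT2G08280, overlaps the window of RSW7.
CYCB1;2: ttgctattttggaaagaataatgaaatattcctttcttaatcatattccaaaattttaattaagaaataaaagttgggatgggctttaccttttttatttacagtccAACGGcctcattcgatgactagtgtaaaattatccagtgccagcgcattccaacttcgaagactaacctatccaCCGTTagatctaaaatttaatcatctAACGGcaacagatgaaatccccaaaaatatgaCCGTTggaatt
KNOLLE: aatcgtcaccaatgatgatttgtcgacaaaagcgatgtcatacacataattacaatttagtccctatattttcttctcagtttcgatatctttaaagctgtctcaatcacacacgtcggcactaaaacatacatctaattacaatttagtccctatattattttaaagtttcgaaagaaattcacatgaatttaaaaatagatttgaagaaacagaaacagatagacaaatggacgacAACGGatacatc
MAP65-4: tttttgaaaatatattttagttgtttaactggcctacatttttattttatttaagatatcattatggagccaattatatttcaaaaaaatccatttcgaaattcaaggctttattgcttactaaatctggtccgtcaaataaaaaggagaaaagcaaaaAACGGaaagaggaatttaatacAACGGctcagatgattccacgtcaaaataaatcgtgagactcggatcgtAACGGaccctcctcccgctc
ATK5: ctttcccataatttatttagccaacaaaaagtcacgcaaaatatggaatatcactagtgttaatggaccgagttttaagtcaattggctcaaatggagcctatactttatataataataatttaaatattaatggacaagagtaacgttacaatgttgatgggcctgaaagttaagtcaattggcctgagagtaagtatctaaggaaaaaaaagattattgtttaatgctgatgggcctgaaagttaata
RSW7: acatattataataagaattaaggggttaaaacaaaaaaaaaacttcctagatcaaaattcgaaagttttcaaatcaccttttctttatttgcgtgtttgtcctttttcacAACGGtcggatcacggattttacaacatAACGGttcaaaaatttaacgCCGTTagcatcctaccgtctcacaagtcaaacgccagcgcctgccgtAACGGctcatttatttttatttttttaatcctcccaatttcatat
3xHMG-box2: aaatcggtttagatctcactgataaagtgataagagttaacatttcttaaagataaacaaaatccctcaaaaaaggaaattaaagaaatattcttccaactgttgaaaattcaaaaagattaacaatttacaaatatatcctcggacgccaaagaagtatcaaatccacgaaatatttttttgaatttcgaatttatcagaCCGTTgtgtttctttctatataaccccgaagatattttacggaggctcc
The windows of CYCB1;2 and RSW7 hold 4 matches each, that of MAP65-4 holds 3, those of KNOLLE and 3xHMG-box2 hold 1 each, and that of ATK5 holds 0. Over both strands, at least 1 match lies in 20.6% of the windows of 27437 protein-coding genes, in 8 of the 11 rule genes and in 12 of 27 spindle and phragmoplast genes (44.4%). The share was as high in some other lists, at 58.6% of 29 canonical histone genes, 54.8% of 31 kinetochore and chromosome genes and 50% of 10 inhibitors of cyclin-dependent kinases. Further lists lay below the share of all windows, at 20% of 15 phloem genes, 18.9% of 37 replication genes, 10% of 10 D cyclins and 7.69% of 13 xylem genes. Of 248 protein-coding genes that were higher in dividing nuclei on both platforms (below), 111 hold a match (44.8%) and 47 hold at least 2 (19.0%, against 3.62% of all windows). A match is a description of these letters and not a binding site.

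Dividing nuclei were rare in every library. On the VASA cambium plates 4 of 313, 6 of 277 and 2 of 292 passing nuclei met the rule, and on the VASA all hypocotyl plates 3 of 293, 3 of 232 and 1 of 181. The mean share per plate was 1.38% ± 0.745 behind the reporter gate and 0.956% ± 0.375 without it (SD, n = 3 plates each). This difference of 0.42 percentage points did not exceed the spread between plates (two-sided exact permutation test, p = 0.5, where 0.10 is the smallest value that 3 against 3 plates allow). It fell to 0.025 points without VASA cambium plate 2 and had the opposite sign under a stricter rule.

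In the 10x all hypocotyl library 23 of 2081 nuclei were dividing (1.11%, exact 95% interval 0.702 to 1.65%). The share was 2.49% in 10x WT (17 of 684) and 1.46% in 10x d14 (12 of 822), a ratio of d14 to WT of 0.587 with a 95% interval of 0.256 to 1.31 from counting error alone. With 1 library per genotype there was no test. Of the 17 WT nuclei, 5 were among the 5% of nuclei with the highest doublet scores of that library, against none of the 12 d14 nuclei, and the ratio without such nuclei was 0.832 (0.342 to 2.03). Counts of D14 itself did not separate the libraries, at 15.7 CPM (counts scaled to a sum of 1000000) in other WT nuclei and 15.1 CPM in other d14 nuclei, so they check no label.

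**Figure D1:**
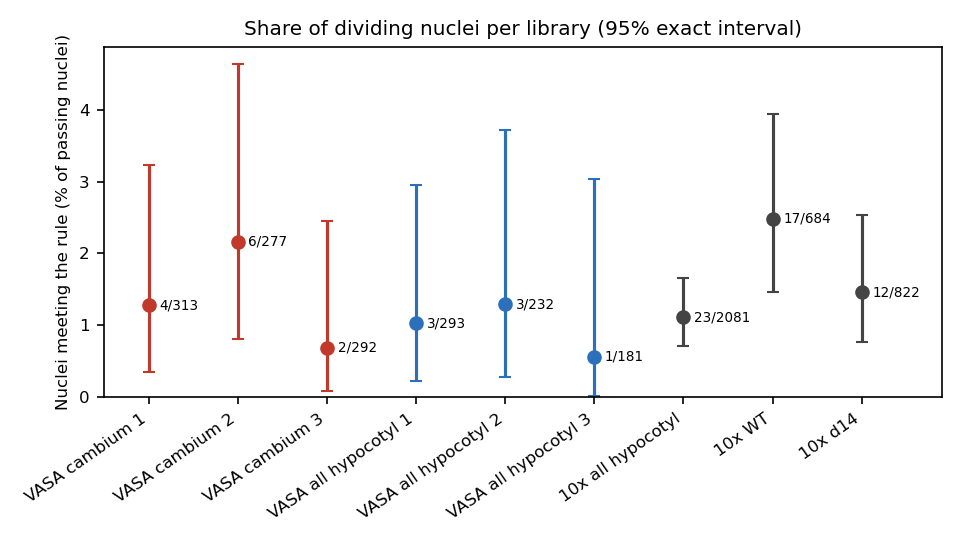
Share of passing nuclei that met the rule (%, vertical axis) in each of the 9 libraries, with exact 95% intervals and the numbers of nuclei. The 6 plates lie between 0.552% and 2.17% with wide, overlapping intervals, and 10x WT is highest at 2.49%.

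Libraries held 1710013 to 2445623 counts per plate and 18175630 to 21650313 per 10x library. Summed over dividing nuclei, 6426 to 49084 counts remained per plate, and 71557, 37099 and 25298 in 10x all hypocotyl, WT and d14. Median counts were 5442 to 14316 per dividing nucleus and 4081 to 6052 per other nucleus over the 6 plates, and 2853 against 1845.5 in 10x all hypocotyl, whereas dividing nuclei of WT (2022 against 2030) and d14 (1758.5 against 2026.5) were no deeper than the rest. As a measure of free RNA, the 6 blank wells of each plate held 0 counts of the rule genes among 1159 to 2056 counts. In the 10x libraries, barcodes of 1 to 100 counts held 66.5, 109 and 90.3 CPM of the rule genes, against 81.2, 142 and 71.6 CPM in passing nuclei.

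Among the 71 nuclei, TOPII was the rule gene found most often, with counts in 15 of 19 plate nuclei and 43 of 52 10x nuclei. CYCA1;1 was counted in 7 and 36 nuclei, CDKB2;2 in 5 and 30, CDKB2;1 in 7 and 26, HINKEL in 9 and 23, CYCB1;2 in 6 and 17 and KNOLLE in 5 and 16. CYCB1;3 was counted in 3 and 10, CDKB1;1 in 5 and 7, CDKB1;2 in 2 and 4 and CYCB1;1 in 1 and 10. Members held 3 to 52 rule counts on the plates (median 6) and 3 to 38 in the 10x libraries (median 9).

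Just inside the limit lay 10 nuclei with exactly 3 counts, and 21 members held counts of exactly 2 rule genes. Just outside lay 8 nuclei with 3 or more counts of a single rule gene and 12 with 1 count each of a pair of genes. A further 33 held 2 counts of 1 gene, 264 held 1 count and 4785 held 0. Pooled over the plates, TOPII had 731 CPM in dividing and 6.87 in other nuclei, and KNOLLE 51.3 and 0.327. The 10x values were 1247 and 6.3 for TOPII and 470 and 0.848 for KNOLLE.

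**Figure D2:**
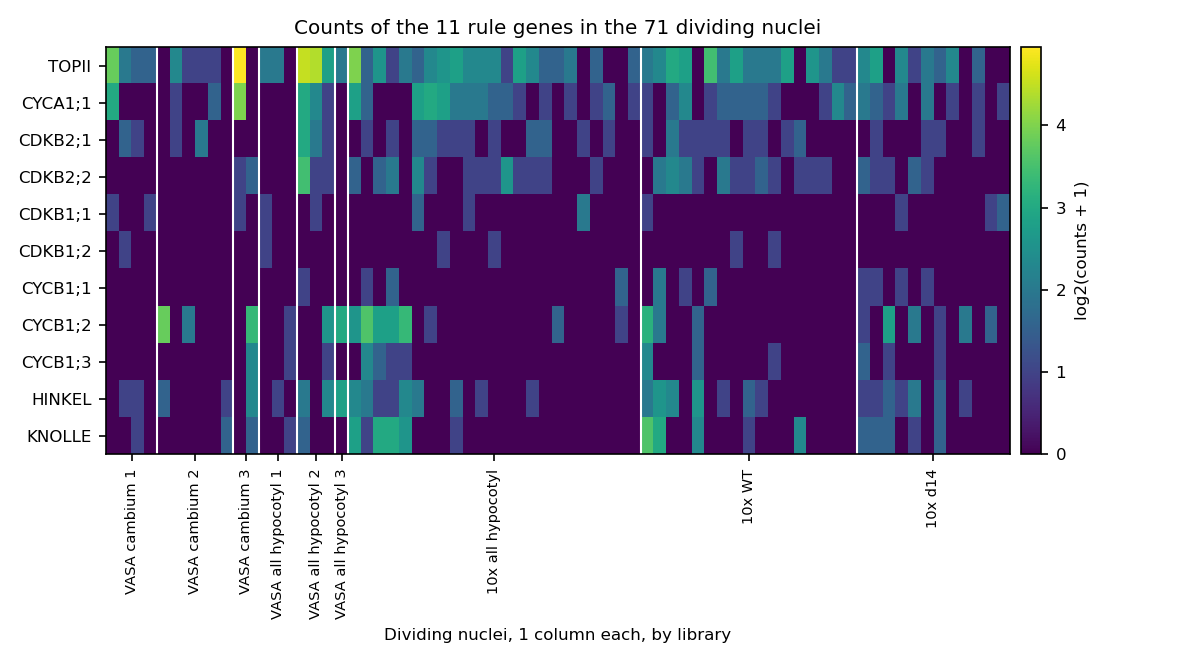
Counts of the 11 rule genes (rows, log2 of counts + 1) in each of the 71 dividing nuclei (columns, grouped by library and ordered by total rule counts). TOPII and CYCA1;1 fill most 10x columns, while CYCB1;2 and KNOLLE are confined to 30 nuclei, 9 on the plates and 21 in the 10x libraries.

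The rule genes did not all sit in the same nuclei. CYCA1;1 was counted without KNOLLE in 34 nuclei, KNOLLE, the syntaxin of the forming cell plate, without CYCA1;1 in 12, and both in 9. Nuclei with a count of CYCB1;2 or KNOLLE numbered 30 and those without 41. This split was chosen after the values were seen and is used below only to describe the nuclei.

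To learn which other genes set dividing nuclei apart, counts were summed per library and state, and dividing nuclei were compared with the other passing nuclei of the same library by edgeR's quasi-likelihood test with the library as a term. On the plates 9940 genes were tested, of which 358 were higher in dividing nuclei (3.6%) at an FDR of 0.05. In the 10x libraries 548 of 11192 genes were higher (4.9%), in a fit over the 3 libraries that was added after the data were seen. This fit takes 10x all hypocotyl, WT and d14 as replicates, although they differ in age, reporter line and genotype. The counts fell to 238 on the plates without VASA all hypocotyl plate 2 and to 338 in the 10x libraries without 10x all hypocotyl. Settings of depth moved them further. On the plates they were 15 when nuclei were thinned to equal depth before the rule was applied, and 79 when members were kept and counts thinned. Thinning before the rule left 1, 2 and 1 dividing nuclei on VASA cambium plates 1 to 3. It left 0, 2 and 0 on VASA all hypocotyl plates 1 to 3, and the plates with 0 took no part in that fit. In the 10x libraries the counts were 319 when thinned before the rule and 151 among nuclei of at least 2500 counts. Of 322 plate calls tested on both platforms, 260 (80.7%) were also higher in the 10x libraries. Of all genes tested on both, 4.91% were higher there, and the 260 shared genes make up 63.9% of the 407 10x calls. These tests kept genes with a mean of at least 20 CPM over the sums. A gene scarce in other nuclei was thus tested only where dividing nuclei held counts of it, which favours higher genes. The shares of higher genes and this overlap rest on that filter. Without it 361 of 33396 genes (1.08%) were higher on the plates and 454 of 27272 (1.66%) in the 10x libraries. TMM scaling moved the median gene to -0.59 on the log2 scale on the plates and -0.32 in the 10x libraries. Each log2 difference below is therefore given relative to that median gene, unless said otherwise. The FDR beside it tests the difference as fitted against 0, before the median was taken off, and so not the printed value.

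Genes lower in dividing nuclei depended on the scaling. TMM called 1225 lower on the plates (12.3%) and 767 in the 10x libraries (6.85%), but 492 (4.95%) and 304 (2.72%) were lower under all of TMM, RLE, library-size scaling and DESeq2. Of the higher calls, 307 and 441 held under all 4. Below, a gene is said to have fallen only where all 4 called it. In such sums fewer nuclei that express a gene and less RNA per nucleus cannot be told apart.

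Most listed genes of the spindle and the phragmoplast rose. Of 27 listed genes outside the rule, 19 were higher on the plates and 22 in the 10x libraries, and 0 were lower. Counts over lists come from fits without a filter on low counts, which on the plates called 1.08% of all genes higher and 5.21% lower, and in the 10x data 1.66% higher and 2.81% lower. As fitted, with no median gene taken off, the median log2 difference over the 27 genes was 3.83 and 5.34, against -0.73 and -0.44 over all genes with counts in both states. Summed over the list, dividing nuclei held 1867 to 10217 CPM on the 6 plates and other nuclei 618 to 717, with no overlap. The 10x sums were 12591 against 420 CPM in all hypocotyl (ratio 30.0, exact 95% interval 27.7 to 32.5), 15310 against 553 in WT and 15495 against 487 in d14.

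CSLD5 (AT1G02730), a cellulose synthase-like enzyme that helps to build the new wall at cytokinesis, was higher on every plate. Its lowest, median and highest levels were 191, 926 and 1671 CPM in dividing nuclei and 7.2, 18.1 and 26.6 CPM in other nuclei, and the groups did not overlap. The log2 difference was 5.68 ± 0.51 (SE, edgeR FDR 1.84e-20), with counts in 14 of 19 dividing nuclei. The 10x value was 8.33 ± 0.56 (FDR 4.48e-43), with 699, 782 and 1265 CPM in dividing nuclei of all hypocotyl, WT and d14 and at most 3.62 CPM in other nuclei.

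MAP65-4 (AT3G60840), which bundles microtubules of the spindle and phragmoplast, had 0, 205 and 650 CPM as its lowest, median and highest level in dividing nuclei of the 6 plates and at most 2.22 CPM in other nuclei. It was higher on 4 of 6 plates, with a log2 difference of 7.07 ± 0.66 (SE, FDR 7.92e-20), and its 46 counts on the plates lay in 8 nuclei. ATK5 (AT4G05190), a minus-end-directed spindle kinesin, had 0, 156 and 613 CPM against 0.58, 1.64 and 3.88 CPM and was higher on 5 of 6 plates. Its log2 difference was 6.51 on the plates (FDR 3.78e-14) and 7.50 in the 10x libraries (FDR 3.91e-37). RSW7 (AT2G28620), the kinesin-5 that keeps spindle poles apart, was 6.06 higher on the plates (FDR 1.14e-08) and 7.84 in the 10x libraries.

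The phragmoplast-orienting kinesins POK1 (AT3G17360) and POK2 (AT3G19050), which guide the new wall to the division site, rose together. POK2 reached 2135, 285, 1282, 446, 1536 and 0 CPM in dividing nuclei of VASA cambium plates 1 to 3 and VASA all hypocotyl plates 1 to 3, against at most 36.0 CPM in other nuclei. The plate at 0 held a single dividing nucleus. Log2 differences on the plates were 4.89 (FDR 3.15e-14) for POK1 and 4.81 (FDR 1.56e-14) for POK2, and 5.67 and 5.82 in the 10x libraries. MAP65-1 and the syntaxin-binding KEU passed the test on neither platform.

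3xHMG-box2 (AT4G23800) binds mitotic chromosomes. It stood at 4304, 3127 and 3162 CPM in dividing nuclei of 10x all hypocotyl, WT and d14 against 8.16, 21.1 and 16.5 CPM in other nuclei, and at 0, 350 and 948 CPM (lowest, median and highest) on the plates against at most 7.76 CPM. The log2 difference was 5.87 on the plates (FDR 9.63e-16) and 7.97 in the 10x libraries, and 86.2% of its plate counts came from 3 nuclei. Among 10x nuclei, 43 of 52 dividing ones held a count. Of 18 spindle and phragmoplast genes called on the plates in the fit with the filter, 12 were called again without each plate in turn, CSLD5, MAP65-4, ATK5, RSW7, POK1, POK2 and 3xHMG-box2 among them.

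**Figure D3:**
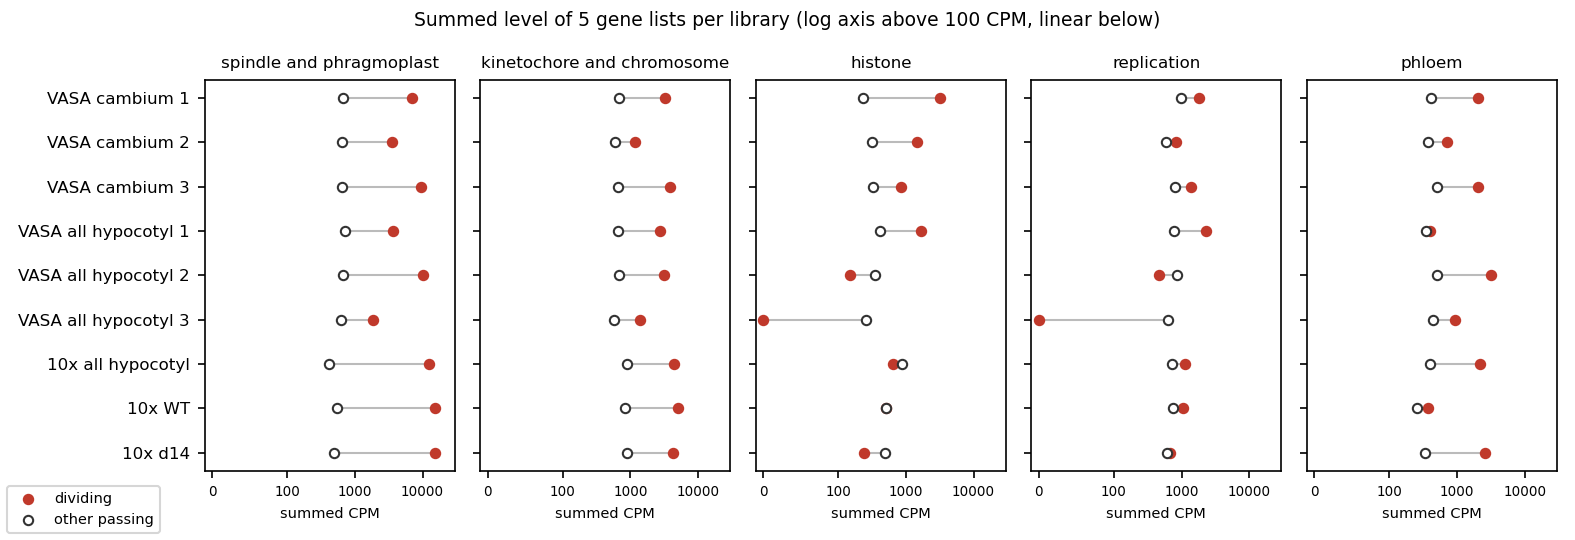
Summed level of 5 gene lists in dividing (filled) and other passing nuclei (open) of each library, in CPM on an axis that is logarithmic above 100 CPM and linear below. Spindle and kinetochore lists are higher in dividing nuclei of all 9 libraries, and the histone list is higher on 4 of 6 plates, lower on the other pair of plates, lower in 10x all hypocotyl and d14, and about equal in WT (512 and 503 CPM).

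Of 31 listed kinetochore, checkpoint and chromosome genes, 15 were higher on the plates and 17 in the 10x libraries, 0 were lower, and the summed list was 3.90-fold higher on the plates (exact 95% interval 3.51 to 4.32) and 5.15-fold in the 10x libraries (4.73 to 5.59). AUR1, the Aurora kinase of spindle and midzone, rose by 5.86 on the log2 scale on the plates (FDR 9.51e-06) and by 7.13 in the 10x libraries. MAD2, which holds anaphase until chromosomes are attached, rose by 5.98 (FDR 1.43e-05) and 7.34. The checkpoint genes BUB1 and BUB3.1, the INCENP homologue WYR and the condensin genes CAP-D2 and SMC2 were higher on both platforms. The 10x call of BUB1 was lost without 10x all hypocotyl (FDR 0.0684). When plate nuclei were thinned to equal depth before the rule, SMC2 was at -0.53 with no median taken off. The median gene of that setting was at -3.62. TPX2 (AT1G03780), which nucleates spindle microtubules, had 377, 458 and 514 CPM in dividing nuclei of 10x all hypocotyl, WT and d14 against 0.22, 0.603 and 0 CPM in other nuclei, a log2 difference of 10.4. On the plates it had 6 counts in 4 nuclei, a log2 difference of 4.24 and an FDR of 0.0402.

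Of 15 listed A and B cyclins outside the rule, 8 were higher on each platform and 0 were lower. CYCB2;4 (AT1G76310) rose by 6.05 on the plates (FDR 9.69e-06) and by 9.42 in the 10x libraries, where WT held 25 counts in 9 dividing nuclei and 0 in other nuclei. CYCB1;4, CYCB2;1 and CYCB2;3 were 8.11, 8.59 and 9.09 higher in the 10x libraries. CYCA3;1, of an A-cyclin class tied to S phase, was 2.66 higher on the plates and did not pass the test (FDR 0.208), and CYCA3;2 passed on neither platform. Of the D cyclins, which act at the exit from G1, 0 of 10 on the plates and 0 of 9 in the 10x libraries passed in either direction.

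Among 17 regulators of mitosis, 5 rose on the plates, 6 rose in the 10x libraries and 0 fell. MYB3R-4 (AT5G11510), an activator of genes with the AACGG core, rose by 5.09 on the plates (FDR 3.71e-14) and by 5.82 in the 10x libraries, and was counted in 12 of 19 plate nuclei. MYB3R1, named PC-MYB1 in RefSeq, was 2.18 higher on the plates (FDR 0.0114) and 2.88 in the 10x libraries (FDR 1.96e-06), but its plate call was lost without VASA cambium plate 3 (FDR 0.132), without VASA all hypocotyl plate 1 (FDR 0.0748) and when nuclei were thinned to equal depth. CCS52B (AT5G13840), named FZR3 in RefSeq, is the mitotic activator of the anaphase-promoting complex. It had 152, 223 and 797 CPM as its lowest, median and highest level in dividing nuclei of the plates and 16.7, 23.3 and 26.6 CPM in other nuclei, without overlap, and rose by 3.79 (FDR 4.34e-08) and by 5.91 in the 10x libraries. RBR1 and CDKA;1, which are used through the whole cycle, passed on neither platform.

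CDC20.1 (AT4G33270) and CDC20.2 (AT4G33260) activate the same complex at the start of anaphase. They are neighbouring genes of nearly the same sequence, so the counts of each alone are uncertain. Few nuclei carried most of their counts: in 10x all hypocotyl, 3 nuclei held 50 and 56, 79 and 55, and 124 and 144 counts of CDC20.1 and CDC20.2, and these 3 supplied 71.7% of the CDC20.1 counts of all 52 10x members. The log2 differences were 3.05 (FDR 0.00203) and 3.04 (FDR 0.00142) on the plates and 7.88 and 6.10 in the 10x libraries, with CDC20.1 in 7 of 19 and 14 of 52 dividing nuclei. Without VASA all hypocotyl plate 3, the plate with the highest CDC20 levels in CPM, the FDR on the plates was 0.106 for CDC20.1 and 0.0528 for CDC20.2, and without VASA cambium plate 2 that of CDC20.1 was 0.127.

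Of 10 inhibitors of cyclin-dependent kinases, 0 passed the test on the plates. Across the 10x libraries KRP1, named ICK1 in RefSeq, was 1.44 lower on the log2 scale under TMM (FDR 0.0384) and did not pass with library-size scaling (FDR 0.0766) or in any pair of the libraries (FDR 0.119 to 0.212). The summed list stood at a ratio of 0.551 in the 10x libraries (0.391 to 0.754) and 1.02 on the plates.

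Of 29 canonical histone genes, which package newly made DNA, 6 were higher on the plates and 0 in the 10x libraries. The list summed to 3164, 1447 and 836 CPM in dividing nuclei of VASA cambium plates 1 to 3 against 235, 312 and 330 CPM in other nuclei. On VASA all hypocotyl plates 1 to 3 it summed to 1652, 148 and 0 CPM against 415, 353 and 254 CPM, so the groups overlapped. In the 10x libraries the ratios were 0.728 in all hypocotyl, 1.02 in WT and 0.480 in d14. Pooled by platform, other nuclei held 710 CPM of the list in the 10x libraries and 322 CPM on the plates. Whether the 6 plate genes differed between platforms was not tested.

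HTA10 (AT1G51060), a histone H2A gene, had 305, 163 and 167 CPM in dividing nuclei of the VASA cambium plates and 223, 29.5 and 0 CPM on the VASA all hypocotyl plates, against 14.6 to 31.8 CPM in other nuclei. It rose by 2.78 ± 0.53 (SE, FDR 0.000846) and kept its call without each plate in turn. HTA6 (log2 difference 3.78, FDR 0.000129), HTB2, HTR9, HTA13 and HTR1 did not: without VASA cambium plate 1 the FDR was 0.103 for HTA6, 0.0503 for HTR9, 0.212 for HTA13 and 0.129 for HTR1, without plate 2 of that gate HTR9, HTA13 and HTR1 were at 0.202, 0.0674 and 0.0987, and without plate 3 HTB2 was at 0.0656. Without VASA all hypocotyl plate 1, HTB2, HTR9 and HTA13 were at 0.060, 0.115 and 0.118. HTA6 had 22 counts in 5 plate nuclei and 0 counts in dividing nuclei of the 10x libraries. Canonical histone genes are near copies of each other, so the counts of single genes are uncertain. Of the 3 H3.3 genes, whose product is also laid down outside S phase, 0 passed on either platform.

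On the plates histone counts were gathered in few nuclei. Of 211 counts, 149 (70.6%) lay in 3 nuclei, which held 57 each on VASA cambium plates 1 and 2 and 35 on VASA all hypocotyl plate 1. The 9 plate nuclei with CYCB1;2 or KNOLLE held 0.808 histone counts per 10000 counts (at most 2.13 in one nucleus) and the 10 without held 21.9 (0 to 106). The 10x values lay closer together, at 4.04 with and 6.10 without. Regulators, CDC20.1 and CDC20.2 included, had 177 per 10000 with and 17.8 without in the 10x libraries, where 3 nuclei held 56% of the counts, and 18.3 and 13.2 on the plates. The cyclins outside the rule had 34.5 and 9.39 in the 10x libraries and 9.69 and 6.70 on the plates. Spindle and phragmoplast genes were counted in both kinds of nuclei, at 75.1 and 53.2 on the plates and 176 and 116 in the 10x libraries.

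**Figure D4:**
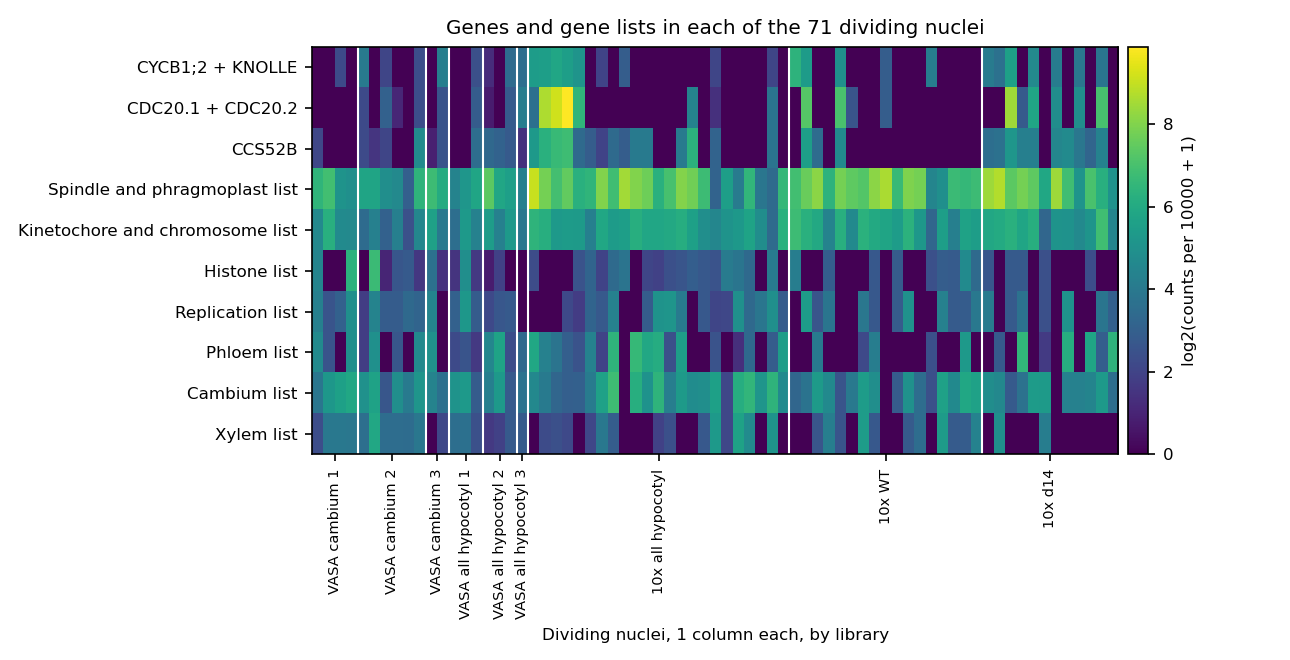
Counts per 10000 (log2 of the value + 1) of selected genes and summed gene lists in each of the 71 dividing nuclei, grouped by library and ordered as in the map of the rule genes. The brightest columns of CDC20.1 and CDC20.2 hold CYCB1;2 or KNOLLE, but several columns with CYCB1;2 or KNOLLE hold no count of either CDC20 gene. The brightest histone columns lack both CYCB1;2 and KNOLLE.

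Of 37 genes of replication enzymes and their helpers, 2 were higher on the plates and 0 in the 10x libraries. The pooled list had ratios with counting-error intervals of 1.29 to 1.74 on the plates and 1.21 to 1.71 across the 10x libraries. By plate the ratios were 1.86, 1.37 and 1.75 (VASA cambium) and 3.04, 0.549 and 0 (VASA all hypocotyl), so the groups overlapped. They were 1.54, 1.39 and 1.10 in 10x all hypocotyl, WT and d14. Of 181 plate counts, 51.4% lay in 3 nuclei. The pair of genes called on the plates were TSO2 (3.25, FDR 0.00191) and RNR1 (2.51, FDR 0.00421), subunits of ribonucleotide reductase, which makes the building blocks of DNA. TSO2 had 457, 20.4 and 0 CPM in dividing nuclei of the VASA cambium plates and 223, 29.5 and 0 CPM on the VASA all hypocotyl plates, against 2.4 to 24.9 CPM in other nuclei. TSO2 lost its call without VASA cambium plate 1 (FDR 0.253) and without VASA all hypocotyl plate 1 (FDR 0.058), and RNR1 without VASA cambium plate 3 (FDR 0.0985). All 7 counts of TSO2 in dividing 10x nuclei lay in 1 nucleus.

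**Figure D5:**
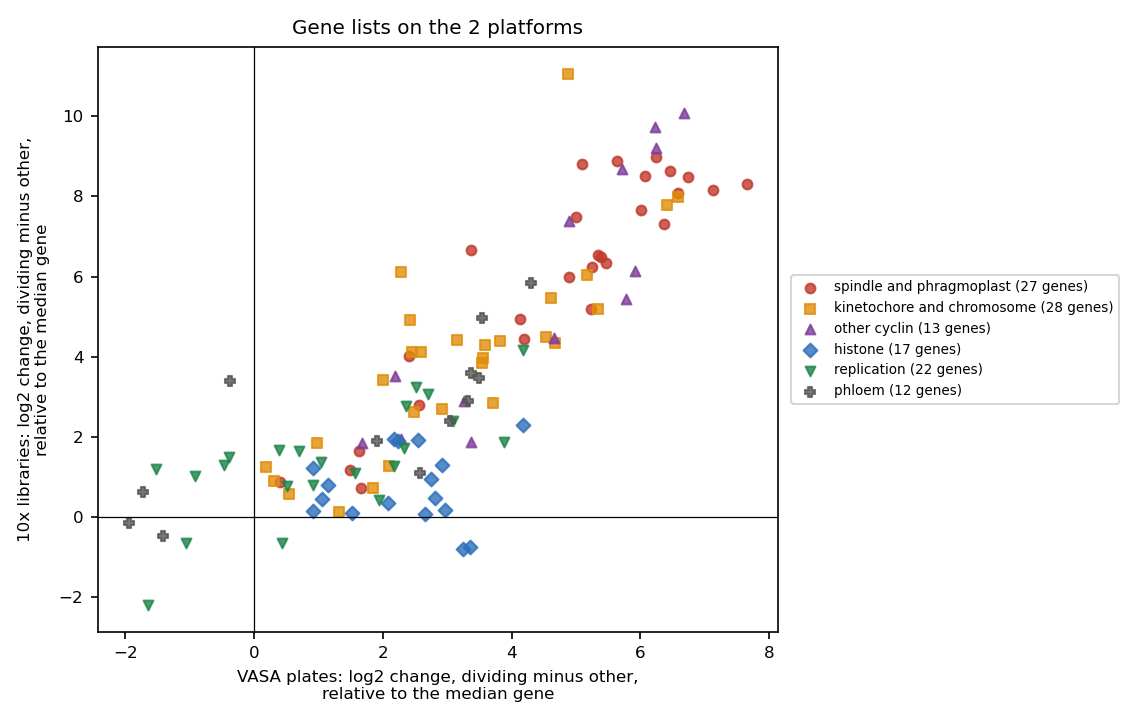
Log2 difference between dividing and other nuclei on the VASA plates (horizontal axis) and in the 10x libraries (vertical axis), relative to the median gene of each platform in the fit without a filter, for listed genes with counts in both states on both platforms. Spindle, kinetochore and cyclin genes lie toward the upper right, and histone genes (17 shown) lie to the right of 0 on the plate axis and below most spindle genes on the 10x axis.

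A published list of 20 genes of dividing root cells, chosen in another organ, moved almost whole. Of the 18 genes outside the rule, 16 were higher on the plates and 18 in the 10x libraries, and the 18 stayed higher in the 10x libraries without each library in turn. This list shares CYCB1;4, CYCB2 genes and CCS52B with the lists above.

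Cambium genes were also counted in dividing nuclei. The pooled list of 12 summed to 1.81 times the level of other nuclei on the plates (1.63 to 2.00) and 1.85 times in the 10x libraries (1.69 to 2.04). These intervals cover counting error only. By plate the ratios were 2.35, 1.87 and 1.41 (VASA cambium) and 2.14, 1.49 and 0.816 (VASA all hypocotyl). They were 2.06, 1.81 and 1.37 in 10x all hypocotyl, WT and d14. Of the 12 genes, 1 was higher on the plates and 2 in the 10x libraries, and 1 was lower on each under TMM but not under all 4 scalings. KNAT1 went down on the plates in the fit with the filter, a call lost without each plate in turn (FDR 0.0518 to 0.202). AIL6, a growth-promoting AP2 transcription factor, was 2.52 higher on the plates (FDR 0.0152) and 2.95 in the 10x libraries (FDR 0.000309), but the plate call was lost without VASA cambium plate 1 (FDR 0.237) and without VASA all hypocotyl plate 2 (FDR 0.297), and the 10x call without 10x all hypocotyl (FDR 0.774). PXY, the receptor kinase of cambium cells, had 88 counts in 13 of 19 plate nuclei, and its log2 differences of 1.06 and 1.48 did not pass (FDR 0.522 and 0.0849). WOX4, a cambium homeobox gene downstream of PXY, had 25 plate counts in 8 nuclei and log2 differences of 0.80 and 0.92 (FDR 0.842 and 0.479).

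Of the 19 dividing plate nuclei, 12 came from behind the reporter gate and 7 from plates without it. Pooled over both, 11 of 19 held transcripts of the PXY:H4-GFP reporter (57.9%, exact 95% interval 33.5 to 79.7% from counting error alone). Among other plate nuclei 18.0% did. After thinning to 1200 counts per nucleus these shares were 26.3% and 5.42%. In 10x all hypocotyl 9 of 23 dividing nuclei (39.1%, 19.7 to 61.5%) and 9.72% of other nuclei held a count, or 34.8% and 6.37% after thinning. For SMXL5:H2B-RFP the thinned shares were 15.8% and 5.04% on the plates and 4.35% and 4.81% in 10x all hypocotyl. The summed plate counts of H4-GFP did not differ by the test (FDR 0.64). Their log2 difference was 0.42 relative to the median gene at -0.59, and so below 0 as fitted and tested. Among other nuclei, GFP transcripts were counted in 15.7% behind the reporter gate and 20.7% without it, so this transcript was not found more often behind the gate.

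Of 15 phloem genes, 5 were higher on each platform. The 5 plate genes were BRX and CVP2, which act in early protophloem, APL and DOF2.4, transcription factors of phloem identity, and SMXL4, a phloem regulator. CVP2 (AT1G05470) had 381, 407 and 948 CPM in dividing nuclei of the VASA cambium plates and 44.6, 886 and 156 CPM on the VASA all hypocotyl plates, against 46.8 to 89.3 CPM in other nuclei. It was higher on 5 of 6 plates, by 2.74 (FDR 0.000343), and kept its call without each plate in turn. BRX (AT1G31880) rose by 3.70 on the plates (FDR 8.09e-05) with all of its 29 counts in 4 nuclei of VASA cambium plate 1 and VASA all hypocotyl plate 2, and by 5.21 in the 10x libraries.

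The plate calls of BRX, APL, DOF2.4 and SMXL4 were lost without VASA all hypocotyl plate 2 (FDR 0.309, 0.112, 0.262 and 0.115), those of BRX, DOF2.4 and SMXL4 also without VASA cambium plate 1 (FDR 0.0669, 0.276 and 0.619), and APL and DOF2.4 without plate 3 of that gate (FDR 0.0596 and 0.085). DOF2.4 was also lost without VASA cambium plate 2 (FDR 0.0804). Over the 10x libraries BRX and SMXL4 held without each library, while APL, DOF2.4 and CVP2 were lost without 10x all hypocotyl (FDR 0.115, 0.131 and 0.135) and APL also without d14 (FDR 0.0856). Summed over the list, dividing nuclei of 10x all hypocotyl held 2180 CPM against 398, d14 2569 against 332 and WT 377 against 253, and in WT dividing nuclei BRX and APL had 0 counts. Of 250 plate counts, 57.6% lay in 3 nuclei, and 15 of 19 plate nuclei and 30 of 52 10x nuclei held a count. Pooled, nuclei without CYCB1;2 or KNOLLE held 20.7 phloem counts per 10000 on the plates and 24.3 in the 10x libraries, and those with either held 8.89 and 6.93. The medians per nucleus were 15.2 without and 2.45 with on the plates. In the 10x libraries they lay closer together, at 4.37 and 2.92. Of mature phloem, SUC2, SEOR1 and PP2-A1 were lower on the plates under TMM and did not pass with library-size scaling (FDR 0.0803, 0.16 and 0.184).

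Markers of other cell types were counted next. Of 8 periderm genes, 2 were lower on the plates under TMM and 0 in the 10x libraries. Dividing 10x nuclei held 26 periderm counts, of which 92.3% lay in 3 nuclei. A single nucleus of 10x all hypocotyl held 17 of them beside 22 rule counts. Of 13 xylem genes, 3 were lower on the plates and 2 in the 10x libraries without a filter, and the list summed to 0.922 and 1.09 times the level of other nuclei. Xylem transcripts were counted in 18 of 19 plate members and 27 of 52 10x members, and the ratio was 1.30 in 10x all hypocotyl, 1.52 in WT and 0.389 in d14. The genes that fell were ACL5, a thermospermine synthase of vessel cells, with 0 counts in dividing plate nuclei against 615 in other nuclei (at least 3.49-fold lower, taking 3 counts for 0), and in the 10x libraries the vessel protease XCP2 and the secondary-wall cellulose synthase CESA4, with 0 against 553 and 0 against 522 counts (at least 2.99-fold and 2.83-fold lower). The 10x calls were lost without 10x all hypocotyl (FDR 0.244 and 0.136) and without WT (FDR 0.0527 and 0.0531), and that of CESA4 also without d14 (FDR 0.0963). Xylem counts reached 34 and 25 in a pair of 10x all hypocotyl nuclei and 0 to 11 in the others of that library. The endodermis and cortex list had 0 counts in dividing nuclei. Other nuclei held 21.2 CPM of it on the plates and 24.1 CPM in the 10x libraries (upper bounds of the ratio 1.13 and 1.15). The stomatal list had 1 count on the plates (ratio 1.05, 0.0261 to 6.09) and 0 in the 10x libraries, where other nuclei held 10. The epidermis list had 1 count on the plates (ratio 0.452, 0.0114 to 2.56) and 3 in the 10x libraries (0.117, 0.0241 to 0.342). Except for epidermis in the 10x libraries, these intervals reach above 1.

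Of 6 strigolactone genes, 4 were lower on the plates and 2 in the 10x libraries under TMM. SMXL7 (AT2G29970), a repressor that D14 signalling destroys, had 38.1, 81.5 and 0 CPM in dividing nuclei of the VASA cambium plates and 446, 59.1 and 156 CPM on the VASA all hypocotyl plates, against 278 to 355 CPM in other nuclei. It was lower on 5 of 6 plates and fell by 1.59 (FDR 0.00104, and 0.0192 with library-size scaling). Its 10x difference did not pass (FDR 0.258), and there SMXL8, of the same family, had 0 counts in dividing nuclei (at least 2.72-fold lower), a call lost without 10x all hypocotyl (FDR 0.126) and without WT (FDR 0.143).

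Outside the lists, the largest plate differences were led by AT4G09240, a noncoding RNA with 36 counts in 5 dividing nuclei and 3 counts in all other nuclei (9.10, FDR 9.81e-22). ACI1 (AT5G01370) followed, with 1182, 244 and 2731 CPM in dividing nuclei of the VASA cambium plates and 44.6, 2215 and 0 CPM on the VASA all hypocotyl plates, against 0 to 12.2 CPM in other nuclei. Its log2 difference was 7.91 ± 0.63 (SE, FDR 1.25e-27) on the plates, over 9 nuclei, and 7.20 in the 10x libraries. ROPGEF3 (AT4G00460), an activator of ROP GTPases, was 7.42 higher, AT1G72250, annotated as a kinesin motor protein, 7.07. IQD6 (AT2G26180), a calmodulin-binding protein, was among the 15 highest too. AT3G51230 and the noncoding AT1G09573 rested on 1 nucleus each.

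For each 10x library, genes were also picked by the largest ratio of dividing to other nuclei, among genes with at least 20 counts in its dividing nuclei. Low counts in other nuclei follow from that choice, so these values only describe the genes picked. In the 10x libraries AT5G03885 had 89 counts in 4 dividing nuclei of all hypocotyl and 2 counts in the other nuclei, and AT1G78865 had 249 in 6 dividing nuclei and 12. The second overlaps the antisense AT1G09833, so its counts cannot be given to 1 strand here. AT5G55520, annotated as kinesin-like, had 29 counts in dividing WT nuclei and 1 in the others.

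The 10 lowest plate genes all had 0 counts in dividing nuclei. TET8 (AT2G23810), a tetraspanin of extracellular vesicles, had 0 against 1598 counts (at least 9.06-fold lower), the metacaspase MC3 was at least 7.92-fold lower and the cytokinin response regulator ARR7 at least 6.63-fold lower. TET8 was also 1.31 lower on the log2 scale in the 10x libraries (FDR 0.0382), with counts in 7 dividing nuclei of all hypocotyl and WT, a call that no set of 2 libraries gave (FDR 0.0917 to 0.278).

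Dividing nuclei behind the reporter gate were also compared with those taken without it. By edgeR 0 of 8955 genes differed (0%), with 284 genes at an unadjusted p under 0.05, and DESeq2 also called 0 (22 genes). The contrast of dividing and other nuclei differed between the gates for 0 of 9940 genes (249 under 0.05, and 0 called with 189 under 0.05 by DESeq2). With 12 and 7 dividing nuclei in the groups, this gives no sign that the nuclei were alike.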

How the data were processed

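Nuclei of Arabidopsis hypocotyls were profiled in 3 droplet libraries (10x) and on 6 VASA-seq plates. The deposited matrices hold raw counts of each gene in each droplet barcode or plate well. Per the labels the authors used STAR 2.7.8a or Cell Ranger 6.0.1 with the TAIR10 genome, counting molecule identifiers (10x) or fragment identifiers (VASA-seq) with introns included. VASA-seq reads also cover RNA without a poly(A) tail, and the gene list of WT and d14 holds no organelle genes.

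Passing nuclei had 1201 to 9999 counts (10x all hypocotyl), 1201 to 14999 (plates, without ERCC spike-ins and 6 blank wells per plate) or 1501 to 14999 (WT and d14), and under 20% mitochondrial counts where these could be read. The study's fluorescence limit on plate nuclei was not applied. Doublets were kept, since Scrublet (scanpy 1.11.5) called 1 to 5 nuclei per group. One barcode was shared by 10x all hypocotyl and WT, and barcodes of d14 could not be named, since 1045361 are listed for 982185 columns.

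Counts were summed per library and state and tested with edgeR 4.0.16 (R 4.3.3; quasi-likelihood, TMM, library as a term, genes with a mean of at least 20 CPM, Benjamini-Hochberg FDR 0.05). For the 10x libraries no test had been planned, and the fit was added after the data were seen. DESeq2 1.42.0, other scalings and filters, thinned counts (1200 or 1500 per nucleus), stricter and looser rules, a minimum of 2500 counts and leaving out each library were alternatives. The code was tested on simulated counts, where TMM called some unchanged genes lower, so lower genes were kept only when called under 4 scalings. CPM is counts scaled to a sum of 1000000, not corrected for gene length. Intervals are 95% exact (Clopper-Pearson or conditional binomial) and cover counting error only, and fold bounds use 3 counts in place of 0. Named genes were the rule genes, the listed genes and the 15 highest and 10 lowest plate genes among those called. To these were added the 5 largest ratios per 10x library among genes with at least 20 counts in its dividing nuclei. Members and lists were chosen with earlier results of these data known. Symbols, windows and products are from NCBI RefSeq TAIR10.1, in coordinates of that assembly.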

Additional observations from a re-analysis of the deposited data

Results flagged for a closer look

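On the plates, nuclei above the upper limit on counts took part in no comparison, yet 15 of the 142 such nuclei (10.6%, exact 95% interval 6.03 to 16.8%) met the rule for dividing nuclei, against 19 of 1588 within the limits. Each plate held 1 to 4 of them. The part of depth in this share was not tested.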

How the results depend on the processing

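Genes higher on the plates numbered 358, and 238 to 343 without each plate in turn, with the lowest without VASA all hypocotyl plate 2. They were 15 when nuclei were thinned before the rule, which left 0 dividing nuclei on VASA all hypocotyl plates 1 and 3. With members kept and counts thinned they were 79, with no upper limit on counts 551 and with library-size scaling 609. The 1225 lower genes became 726 with RLE factors, 492 with library-size scaling, 2322 with filterByExpr, 1865 under a stricter rule, 706 with no upper limit, 3539 thinned before the rule, 4287 with members kept and counts thinned, and 731 to 1043 without each plate. In the 10x libraries the 548 higher genes became 319 thinned and 151 at a minimum of 2500 counts, and 338 to 481 without each library in turn. The 767 lower genes became 304 by DESeq2, 199 at 2500 counts, 433 under the stricter rule and 251 to 411 without a library.

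The difference in share between the gates was -0.061 points under the stricter rule, -0.065 with no upper limit, and 0.025 to 0.766 without each plate. Ratios of the spindle list over genes in both 10x gene lists (30.2, 28.5 and 33.4 in all hypocotyl, WT and d14) became 44.7 and 38.2 in all hypocotyl and d14 when thinned, 41.6 and 43.1 there under the stricter rule, 27.6, 19.8 and 12.5 at 2500 counts, and 31.3 in WT without the highest doublet scores.

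Plate log2 differences below 0, before the median was taken off, were found with members kept and counts thinned for RNR1 (-0.88), TSO2 (-0.24), CYCA2;3 (-0.29), PC-MYB1 (-2.87), EMB2656 (-1.25) and AIL6 (-0.41), and when thinned before the rule for HTA10 (-0.26), PC-MYB1 (-6.51), SMC2 (-0.53), EMB2656 (-0.52), AIL6 (-0.77) and CVP2 (-0.061). Thinning before the rule also moved the median gene to -3.62, and thinning with members kept moved it to -1.90. Only the values of PC-MYB1 lay below these medians. The cause of these changes was not tested. Replicate numbers did not pair the plates (correlations of same-numbered plates 0.016, -0.172 and 0.008 in dividing nuclei), and a replicate block in place of the plate term gave 542 higher genes on the plates, and p = 0.25 for the share.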
